A study of Mus musculus with 24 samples.

Results

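N6-methyladenosine (m6A) was mapped in the spinal cord of sham-operated mice by immunoprecipitating RNA fragments with an m6A antibody and comparing them with the input RNA. The map is a single deposited peak list for the sham group and holds 32669 of the 145655 peaks that were listed for all 4 groups of the study. A peak was called strict when the authors' fold enrichment of immunoprecipitated over input RNA was at least 2 and their p-value was at most 1e-05. By this rule 21808 peaks were strict, which is 66.8% of the sham list, and they lay in 12304 genes. Each peak was given to the gene whose identifier stands in its name column, and gene levels came from the input libraries as FPKM, a fragment count scaled to transcript length and library size. Fold enrichments and p-values of peaks are the authors' own values throughout.

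In the sham group the sciatic nerve and its branches were exposed and the wound was closed, and these mice are labelled day 3. The other 3 groups had spared nerve injury, in which the common peroneal and tibial nerves are tied and cut while the sural branch is left whole, and were taken on days 3, 7 and 14. Sevoflurane anaesthesia was common to all groups, and no genotype, strain, sex or age is given in the sources used here. Every group had 3 immunoprecipitated and 3 input libraries, 24 in all, made from poly(A) RNA that was fragmented before the antibody step. The labels leave unsaid if the 3 libraries per group were separate mice and if they were pooled to call peaks. With 1 list per group there is no replicate of any peak value, so the values are described without a test.

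The mark is placed on adenosines in a short DRACH-type context by a nuclear complex, in which METTL3 is the catalytic subunit, METTL14 holds the RNA, and WTAP, VIRMA, ZC3H13, RBM15, RBM15B and CBLL1 guide and stabilise the pair. FTO and ALKBH5 remove methyl groups, and proteins with a YTH domain bind the mark and act on the export, translation and decay of the RNA. In mammalian mRNA the mark is known to gather in long internal exons, around the stop codon and in the 3′ UTR, and it is sparse on short, heavily spliced, housekeeping messages. Antibodies to m6A also recognise m6Am, a related base that can sit next to the cap at the first transcribed position and is made by PCIF1. In the nervous system m6A has been studied in axon growth, synaptic function and the response to nerve injury.

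The transcript starts are shown because 9 of the 12 highest enrichments in expressed, named genes lay in 5′ UTRs, and because the first base is where m6Am would stand. The first 6 lines are the first 30 bases of the named genes with the strongest peak over a RefSeq start that lies within 50 bases of the deposited gene start, and the last 3 lines are those of abundant genes with no peak of any kind in the sham list. They are RefSeq sequences of build GRCm38.p6, written 5′ to 3′ on the gene's strand, with the annotated first base in capitals.
Map7d2, chrX:159414572-159414601, plus strand: Gcgagcccgggcagagggaggccggcgcgc
Pde1b, chr15:103503034-103503063, plus strand: Gcacccctaggctctcttgcgctcctaggc
Tmem114, chr16:8425107-8425136, minus strand: Gtgagcccagtcttcttgaggtttcaggac
Tafa5, chr15:87544299-87544328, plus strand: Agtgggccggggcccgggcgcggcggcggc
Slc27a4, chr2:29802634-29802663, plus strand: Agtggtgcgcgcagggctggaggggctggg
Pgrmc2, chr3:41083017-41083046, minus strand: Gcgggcttggggagggcagggggcgggagg
Psap, chr10:60277628-60277657, plus strand: Gtttgggcggggcccgcgcctgcgcactgg
Ckb, chr12:111672309-111672338, minus strand: Gacgcgccccttaagagctcagggagcagc
Rps15, chr10:80292431-80292460, plus strand: Gataactgcgcaagcgcagcccgtacttcc
The peaks at the starts of the first 6 genes had fold enrichments of 377, 324, 307, 254, 216 and 190. Their sequences begin with A or G, and those of the 3 genes without a peak begin with G.

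RefSeq gave a start for 9780 genes with a mean sham FPKM of at least 1, and the first 50 bases of each were read. A strict peak lay over the start in 1265 of them, and 2502 had no strict peak at all. The annotated first base was A in 30% of the genes with a start peak, against 28.2% of the genes without a strict peak and 27.9% of all. The 4 letters GGAC, the core of the common m6A context, occurred on the transcribed strand in 19.8% of the windows with a start peak, against 20.7% of those without a strict peak and 20.1% of all. The reverse complement GTCC, read for comparison, occurred in 16.7% of the windows with a start peak, against 21.5% of those without a strict peak and 20.3% of all. The longer GGACT occurred in 5.14%, against 5.04% and 4.89%. The first base was A in 34.2% of the 704 windows whose start peak had a fold of 2 to under 10. It was A in 26.8% of the 284 at 10 to under 20 and in 22.4% of the 277 at 20 or more. Among the 76 of these 277 with a fold of at least 50 it was A in 25%. A was thus less frequent at start peaks of 10-fold or more than at weaker ones, without a steady fall to the strongest. GGAC and GGACT under start peaks lay within 1 percentage point of all windows, and GTCC was less frequent. G made up 38.3% of the bases under start peaks, against 34.7% without a strict peak and 35.8% in all windows, and its share was 42.4% in the 277 windows with a fold of at least 20 and 45.3% in the 76 with a fold of at least 50. The annotated first base need not be the base at which transcription begins in the cord, and whether base composition bears on the enrichment was not tested.

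MicroRNA hairpins were also found under strict peaks, and the mature sequences are shown for 4 hairpins that lay wholly inside a peak of an expressed host transcript, chosen after their values were seen. The seed, bases 2 to 8, is in capitals, and the sequences and positions are those of RefSeq for GRCm38.p6.
mmu-miR-9-5p: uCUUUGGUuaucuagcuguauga
mmu-miR-9-3p: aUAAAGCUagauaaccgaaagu
mmu-miR-671-5p: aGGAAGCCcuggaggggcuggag
mmu-miR-671-3p: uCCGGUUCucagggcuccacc
mmu-miR-1306-5p: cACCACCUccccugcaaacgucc
mmu-miR-1306-3p: aCGUUGGCucugguggugaug
mmu-miR-3618-5p: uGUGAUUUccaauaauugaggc
mmu-miR-3618-3p: cUACAUUAaugaaaagagcaau
No 2 of these share a seed. The Mir9-2 hairpin, source of a microRNA of neural progenitors, lies at chr13:83738814-83738885 on the plus strand, in an exon of the noncoding gene C130071C03Rik under a peak of 17.1-fold enrichment. The Mir671 hairpin lies at chr5:24592114-24592211 on the plus strand, in the 3′ UTR of Chpf2, a chondroitin polymerising factor gene, under a peak of 20.1-fold. Dgcr8, which encodes the hairpin-binding partner of Drosha and is known to be cut by that complex in its own message, carried the hairpins of miR-1306 at chr16:18284239-18284317 and miR-3618 at chr16:18284550-18284637 on the minus strand. Both lay within 1 peak of 5.43-fold enrichment that is listed in the 5′ UTR, a label of the whole peak and not of each hairpin. Each of these 3 host peaks was met by a strict peak in all 3 injured lists. In all, 25 of 1005 RefSeq hairpins shared a base with a strict peak, and 18 lay wholly inside one. The enrichment belongs to the host exon as well as the hairpin, so the deposited values cannot tell which of them carried the mark.

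The sham libraries did not resemble each other equally, which bears on every FPKM value that follows. Sham libraries 1 and 2 had a Spearman correlation of 0.985 across genes with an FPKM of at least 1, against 0.902 and 0.903 for each with library 3. Over the 85 genes with a mean of at least 200 FPKM, the ratio of libraries 1 and 2 spread by only 4.7%, and that of either to library 3 by 150%. The labels do not say that libraries 1 and 2 are separate mice. Counting them as 1 sample in the FPKM mean left the share of expressed genes with a strict peak at 69.7% and the correlation of fold with FPKM at -0.16. The peak list and its folds were the same in that check, so it cannot show how the map itself depends on these libraries. Gm23935 was at 3891, 3812 and 1.43 FPKM and Lars2, a mitochondrial leucyl-tRNA synthetase gene, at 108, 108 and 1.11 FPKM in libraries 1, 2 and 3, the order in which all sham values are given. Gm23935 is among the 85 genes and weighs heavily in the spread of 150%, which was not computed without it. Read depth is unknown, because the files used hold FPKM and peak values. Markers of cord cells were present at very different levels: myelin basic protein Mbp was at 1845, 1835 and 1786 FPKM, the synaptic gene Snap25 at 356, 357 and 345 FPKM, and the lumbar Hox gene Hoxc10 at 39.7, 39.1 and 49.7 FPKM, while the microglial gene Tmem119 was at 3.95, 4.08 and 3.43 FPKM and the motor neuron genes Chat and Mnx1 were at 7.52, 7.78 and 3.25 and at 0.881, 0.923 and 0.598 FPKM. Of the forebrain markers, Emx1 was listed at 0, while Neurod6 was at 1.75, 1.72 and 2.25 FPKM, and Scn10a of sensory ganglia was listed at 0. The liver gene Alb was at 29.5, 4.99 and 0.0526 FPKM, Apoa1 at 4.46, 14.2 and 0.0873 FPKM and Ttr at 3.76, 2.21 and 0.131 FPKM. The muscle gene Acta1 was at 3.98, 0.339 and 0.915 FPKM, and none of these genes held a strict peak. Libraries 1 and 2 thus differed in these genes, with Apoa1 higher in library 2 and the others higher in library 1. In whole cord, fewer cells of a type and less RNA per cell cannot be told apart.

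Most genes that the cord expressed carried a strict peak, and 45.9% of all genes with one had several. Of 13442 genes with a mean sham FPKM of at least 1, 9364 held a strict peak, a background share of 69.7%, and 10252 had a row of any kind. Of the 12304 genes with a strict peak, 6654 (54.1%) had 1, 3319 had 2, 1435 had 3, and 356 (2.89%) had 5 or more. Strict peaks averaged 1.30 per expressed gene. Gene classes differed: 8847 of 11841 expressed protein-coding genes (74.7%) and 226 of 328 long noncoding RNA genes (68.9%) held a strict peak, against 51 of 585 pseudogenes (8.72%), 1 of 57 microRNA genes and 0 of 32 snoRNA genes. Pseudogenes resemble their parent genes, so reads of the 2 can be split between them, and the part of this in their share was not tested.

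The gene with most strict peaks was Ahnak, which encodes a giant scaffold protein at the cell membrane, with 15 of them. Ahnak had 1.83, 1.61 and 3.65 FPKM, and 14 of its peaks are listed in exons, with fold enrichments of 2.9 to 9.37, and the remaining 1 in its 3′ UTR at 2.53. The strongest ran over 391 bases at chr19:9014060-9014450 in exon 5, the last exon of the transcript, so its peaks fell in the long terminal coding exon. Piccolo (Pclo), a scaffold of the presynaptic active zone, followed with 12 strict peaks at 5.21, 5.37 and 8.16 FPKM. Of these, 11 are listed in exons and the strongest, 9.94-fold, in the 3′ UTR at chr5:14858812-14859322. Stard9 and Ahnak2 had 11 each. The adhesion gene Fat4, the axon initial segment organiser Ank3 and the transcription factor gene Zfhx4 had 10 each, and the repressor gene Spen, the microtubule crosslinker gene Mtcl1 and the histone methyltransferase gene Kmt2d had 9 each. All 10 were genes of low to middling level, from a mean of 1.48 FPKM in Fat4 to 13.6 FPKM in Ank3.

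Number of peaks moved with enrichment and with gene size. The median of the highest fold per expressed gene was 6.07 in genes with 1 strict peak, 9 with 2, 11 with 3 and 12.6 with 4 or more, so genes with several peaks also held the stronger ones. A gene with more peaks has more chances of a high maximum, and that part was not tested. The median genomic span of the gene was 21512 bases with 1 strict peak and 58242 bases with 4 or more, while the median FPKM was 6.08 and 5.1. Some rows repeat a region: 4 pairs of rows of Neat1, the RNA scaffold of paraspeckles, overlap over most of their length, and merging overlapping rows of a gene left 21551 strict peaks.

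**Figure D1:**
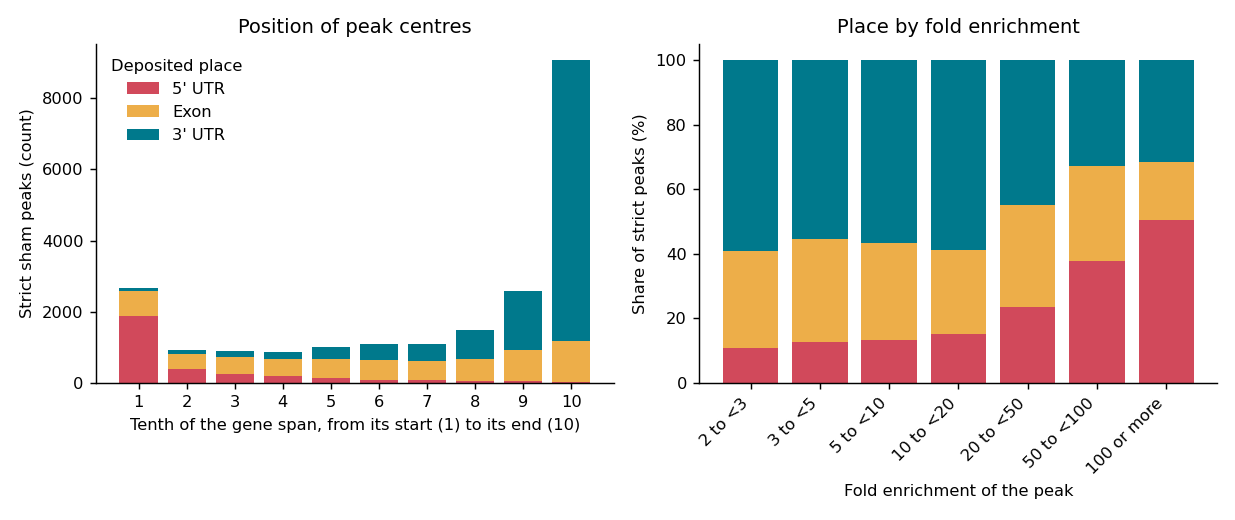
Strict sham peaks by where their centre lies along the gene span, in 10 equal steps from start to end on the x axis and the number of peaks on the y axis, coloured by deposited place (left), and the share of strict peaks in each place, in percent, by fold enrichment (right). The last step holds 9073 peaks and the first 2663, and the 5′ UTR share is 10.8% at a fold of 2 to 3 and 50.6% at 100 or more.

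The 3′ UTR held the most strict peaks, and the 5′ UTR those of highest median enrichment. By the deposited annotation, 12200 strict peaks (55.9%) lay in the 3′ UTR, 6473 (29.7%) in another exon and 3135 (14.4%) in the 5′ UTR. Median fold enrichments were 6.29 in the 3′ UTR, 6 in exons and 7.55 in the 5′ UTR, against 6.34 over all strict peaks, whose quartiles were 3.81 and 11.2. Median exonic length was 448 bases in the 3′ UTR, 360 in exons and 300 in the 5′ UTR. The place rests on a second gene column that names another gene in 23.9% of strict peaks and in 31.4% of those of the 3′ UTR. In the peaks where both columns name 1 gene, the 3′ UTR share was 50.4%, the exon share 31.7% and the 5′ UTR share 17.9%.

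Position along the gene, which does not use that column, showed the same 2 ends. Of 21670 strict peaks in genes of the FPKM table, 9073 (41.9%) had their centre in the last 10% of the genomic span and 2663 (12.3%) in the first 10%, and each of the 10% steps from the second to the seventh held 867 to 1102. The span includes introns, and the share of exonic bases in each step was not computed, so these shares have no background beside them. Peaks within 100 bases of the annotated gene start numbered 2332 (10.8%), with a median fold of 9.24, and those within 100 bases of the gene end 3987 (18.4%), with a median fold of 6.94. Among strict exon peaks, 2622 (40.5%) lay in internal exons with a median fold of 4.92 and 1873 (28.9%) in the last exon with a median fold of 6.17. First exons of several held 1028 with a median fold of 7.38, and transcripts of a single exon held 950 with a median fold of 9.23. Internal exons thus held the most exon peaks and the weakest ones.

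Genes differed in which ends they used. Strict peaks lay in the 3′ UTR alone in 5745 genes (46.7%), in exons alone in 2440 (19.8%) and in the 5′ UTR alone in 655 (5.32%). Both UTRs and no other exon were used in 1363 genes (11.1%), and all 3 places in 551 (4.48%). The share of 5′ UTR peaks went up with enrichment, as the plot of place by fold shows: it was 10.8% of 3077 peaks with a fold of 2 to under 3, 15.1% of 4368 with 10 to under 20, and 50.6% of 79 with 100 or more. Over the same bins the 3′ UTR share was 59.3%, 58.9% and 31.6%.

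The peak of highest enrichment in an expressed, named gene lay in the 3′ UTR of Nanp, which encodes the phosphatase that completes sialic acid synthesis. Nanp had 2.47, 2.56 and 2.05 FPKM, and its peak ran over 923 bases at chr2:151029982-151030904 on the minus strand with a fold of 1210. This value stood alone: it was met at 22.5-fold on day 7 and by no strict peak under the same overlap rule on days 3 and 14. Nanp had 2 further strict peaks, of 42.2-fold in the 3′ UTR and 30.9-fold in the 5′ UTR. No read count behind this fold is in the files used.

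Capns1, the regulatory subunit of calpain proteases, had the second highest fold. Its level was 93.3, 89.6 and 54 FPKM, and its 5′ UTR peak, 538 bases in 3 exon blocks from chr7:30193777-30198811, had a fold of 709, against 406, 153 and 99.5 on days 3, 7 and 14. Dhx9, an RNA helicase gene with 11.5, 12.2 and 18.5 FPKM, had a 3′ UTR peak of 438-fold in sham cord at chr1:153455937-153458053, against 877, 1100 and 984 on days 3, 7 and 14. Sham thus had the highest fold of the 4 lists at Capns1 and the lowest at Dhx9, in lists without a replicate. The microtubule-binding gene Map7d2 (75.2, 73.4 and 126 FPKM), the RNA-binding gene Syncrip (4.86, 5.07 and 10.9 FPKM) and the phosphodiesterase gene Pde1b (23.9, 24.9 and 20 FPKM) had 5′ UTR peaks of 377-, 331- and 324-fold. Tmem114, the neuronal polarity kinase gene Brsk1, the secreted factor gene Tafa5, the transcription regulator gene Kctd1 and the fatty acid transporter gene Slc27a4 completed the 5′ UTR peaks among the 12 of highest fold, at 216- to 307-fold, and the 3′ UTR peak of Fam171a2 had a fold of 228. Thus 9 of these 12 lay in the 5′ UTR.

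Among exon peaks the highest fold in an expressed, named gene was 209, in exon 2 of 24 of Rrbp1, a ribosome receptor of the endoplasmic reticulum. It was followed by Cnnm3 (182-fold), which encodes a magnesium transport protein, and by Mag (156-fold). Mag, a myelin adhesion molecule that restrains axon growth, had 205, 204 and 93.1 FPKM, and its peak of 181 bases lay in exon 4 of 4 of the annotated transcript at chr7:30908767-30908947. The same Mag peak was met at 184-, 63.4- and 250-fold on days 3, 7 and 14. Morf4l1, Zfp865 and the nucleolar methyltransferase gene Fbl followed with 101-, 94.2- and 85.4-fold. After Nanp, Dhx9 and Fam171a2, the strongest 3′ UTR peaks were those of Fancf (197-fold), the neural adhesion gene Ntm (180-fold) and Vkorc1l1 (162-fold).

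The smallest p-values belonged to abundant genes of moderate enrichment. Among the 8 smallest that the file could hold were those of the neurofilament genes Nefm (584, 578 and 455 FPKM) and Nefl (763, 764 and 500 FPKM). Their log10 p, the base being taken as 10 from the column's name, was -29400 at 9.27-fold in Nefm and -27100 at 5.02-fold in Nefl, and that of the myelin gene Mobp was -15000 at 3.72-fold. Nap1l5, Camk2g, Ndn and Tuba4a were also among the 8, with folds of 8.88 to 48.2. For another 12 strict peaks the p-value was too small for the file to hold, among them Map7d2, the semaphorin gene Sema7a (96.7-fold) and the chromatin remodeller gene Chd3 (80.5-fold).

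**Figure D2:**
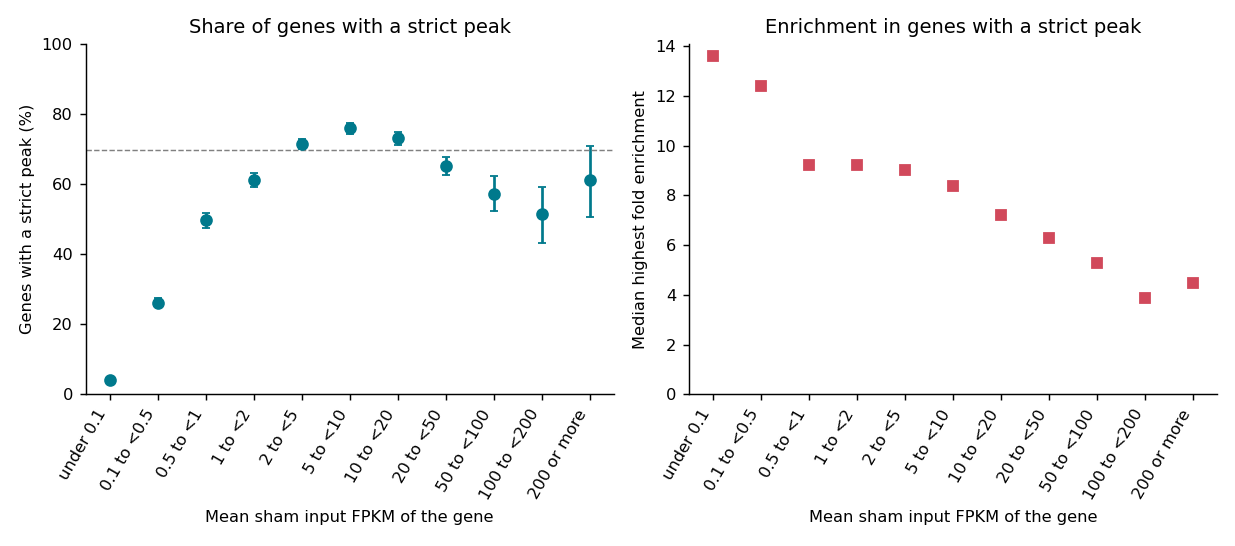
Share of genes with a strict sham peak in percent, with 95% Wilson intervals and the background of 69.7% as a dashed line (left), and the median highest fold enrichment of the genes that have one (right), both by mean sham input FPKM on the x axis. The share is highest at 75.9% between 5 and 10 FPKM, and the median fold is 9.21 at 1 to 2 FPKM and 3.86 at 100 to 200 FPKM.

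The share of genes with a strict peak went up with gene level, reached its height in the middle of the range and was lower among abundant genes. It was 4.13% below 0.1 FPKM, 26.2% from 0.1 to 0.5, 61.1% from 1 to 2, 75.9% from 5 to 10, 65.1% from 20 to 50 and 51.4% from 100 to 200 FPKM, where 75 of 146 genes had one (Wilson 95% interval 43.3% to 59.3%, counting error only). At 200 FPKM or more it was 61.2%, with 52 of 85 genes. The median highest fold of genes with a strict peak was 13.6 below 0.1 FPKM, 9.21 from 1 to 2, 7.2 from 10 to 20 and 4.47 at 200 or more. Across the 9364 expressed genes with a strict peak, the Spearman correlation of highest fold with mean sham FPKM was -0.16, and -0.15, -0.15 and -0.17 with each library. Both measures use the same input libraries, since FPKM is the input level and the fold divides by input. The number of strict peaks had a Spearman correlation of -0.06 with FPKM. The median FPKM was 5.75 in genes with a strict peak and 5.1 in expressed genes without.

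Gene span moved with the share as well. From the shortest to the longest eighth of expressed genes by genomic span, the share with a strict peak was 34.1%, 69.1%, 70.1%, 74%, 73.6%, 75.5%, 78.1% and 82.8%, and the mean number of strict peaks per gene was 0.47 in the shortest and 1.95 in the longest eighth. Abundant genes were shorter: the median span was 9655 bases at 100 to 200 FPKM, against 25314 at 5 to 10 FPKM. Without the shortest eighth the share was 54.7% of 117 genes at 100 to 200 FPKM, 67.1% of 73 genes at 200 FPKM or more and 78.4% of 2824 genes at 5 to 10 FPKM, while the median spans were 14395, 13191 and 29480 bases. These bins still differ in span, and the parts of span and level in the share were not separated. Genomic span includes introns, and exonic length of genes was not used here.

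Strict peaks in genes of very low level often lay over those of a neighbour. Of 621 strict peaks in genes below 0.1 FPKM, 271 (43.6%) overlapped a strict peak of another gene by at least 50%, most of them on the opposite strand (32.9%), against 979 of 17486 (5.6%) in genes with an FPKM of at least 1. The libraries keep strand, per the labelled protocol, but how strand was used in counting is not given, so reads of such pairs cannot be assigned with certainty.

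**Figure D3:**
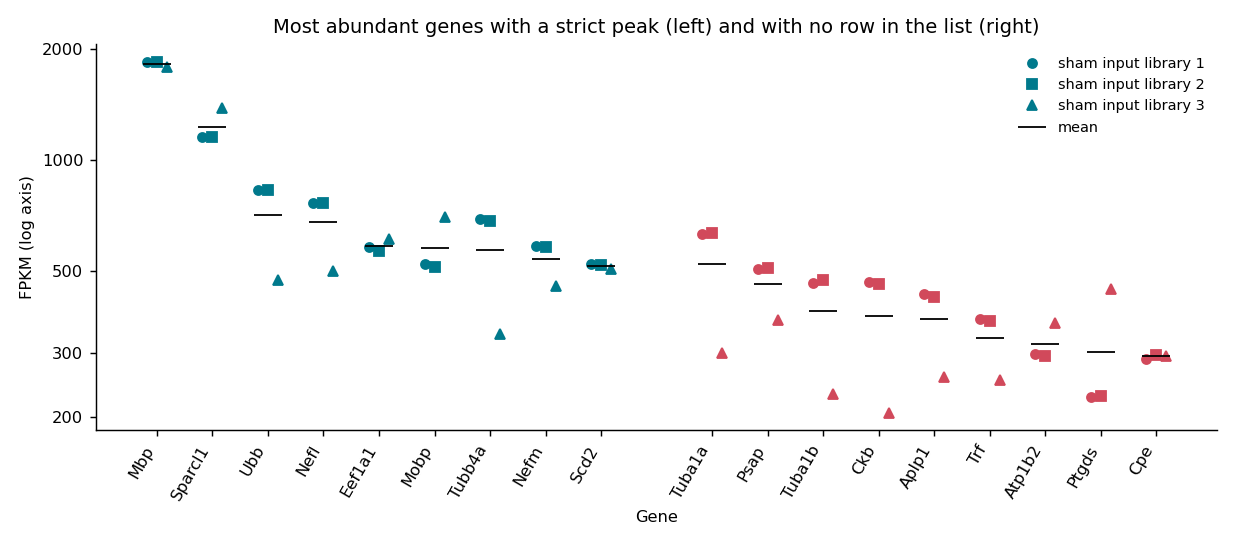
FPKM in each of the 3 sham input libraries, on a log axis, for 9 of the 10 most abundant named protein-coding genes with a strict peak (left) and 9 of the 10 most abundant with no peak in the sham list (right). Mbp stands at 1786 to 1845 FPKM with 3 strict peaks, and Tuba1a at 300 to 632 FPKM with none.

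Abundant messages fell on both sides. Those with a strict peak were led by Mbp, with 3 strict peaks of 2.03- to 5.66-fold, and included the matricellular gene Sparcl1 (1151, 1152 and 1382 FPKM, 2.5-fold in exon 4 of 11), the polyubiquitin gene Ubb (829, 828 and 473 FPKM, 2.71-fold), Nefl, the elongation factor gene Eef1a1 (578, 567 and 608 FPKM, 2.41-fold), Mobp, the tubulin gene Tubb4a (691, 681 and 336 FPKM, 2.78-fold), Nefm and the desaturase gene Scd2 (520, 519 and 505 FPKM, 3.23-fold). Their highest folds reached 9.27 at most, which is below the 75th percentile of all strict peaks. Of the 212 protein-coding genes with a mean of at least 100 FPKM, 122 (57.5%) had a strict peak and 70 had no row in the sham list. Among the most abundant of those 70 were the tubulin genes Tuba1a (628, 632 and 300 FPKM) and Tuba1b (463, 473 and 232 FPKM), the lysosomal prosaposin gene Psap (506, 509 and 368 FPKM) and the creatine kinase gene Ckb (466, 461 and 206 FPKM). They also included the amyloid precursor-like gene Aplp1, the transferrin gene Trf, the sodium pump subunit gene Atp1b2, the prostaglandin D synthase gene Ptgds and the peptide-processing gene Cpe, with means of 293 to 371 FPKM. The alpha tubulin genes are near-identical in sequence, so reads can be split among them, and the part of this was not tested.

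Most of the genes that write, remove and read the mark carried a strict peak, as did most expressed genes. In the list of writer genes, which holds the complex and the separate methyltransferase genes Mettl16 and Pcif1, 8 of 10 expressed genes held a strict peak, with 26 peaks in all, and among erasers and readers 10 of 11 did, with 21, beside a background of 69.7%. The shares were 80% and 90.9%, the first near the background, and both lists are short. Of the scaffold subunits, Virma (4.62, 4.39 and 6.8 FPKM) had 6 strict peaks of 3.44- to 6.81-fold, 4 in exons and 2 in the 3′ UTR. Zc3h13 (11.3, 11.3 and 15.8 FPKM) had 5, the strongest at 20.1-fold in exon 11 of 19, chr14:75324541-75329727. Wtap (6.32, 6.05 and 7.27 FPKM) had 2 in its 3′ UTR, the stronger at 7.08-fold, and Cbll1 1 of 6.63-fold that overlaps a peak of another gene on the opposite strand. The RNA-binding adaptors Rbm15b and Rbm15 had 4 strict peaks each, with highest folds of 44 in the 3′ UTR at chr9:106884083-106886502 and 15 in exon 1. The Rbm15b peak of 12.5-fold lies inside that of 44-fold, so these rows repeat a region. Another Rbm15b peak, of 8.28-fold, is listed in the 3′ UTR although it reaches the annotated start of the gene. Rbm15b had 4.66, 4.65 and 4.5 FPKM and Rbm15 1.26, 0.987 and 1.73 FPKM.

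The catalytic pair stood outside these 8. Mettl3 (2.82, 3 and 2.34 FPKM) had 2 rows that missed a threshold, 1 in the 3′ UTR with a fold of 1.67 and a log10 p of -3.43 and 1 in an exon with a fold of 8.28 and a log10 p of -1.88. Mettl14 (2.87, 2.91 and 4.11 FPKM) had no row in the sham list. In each of the 3 injured lists both genes had 1 strict peak. The lists have no replicate, and that difference was not tested. Mettl16, which methylates U6 snRNA and the Mat2a message, had 2 strict peaks up to 10.2-fold and the cap methyltransferase gene Pcif1 2 up to 8-fold, all in 3′ UTRs.

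Of the erasers, Fto (14.9, 14.7 and 14.7 FPKM) had strict peaks of 4.25-fold in exon 3 of 9, at chr8:91409376-91409795, and 3.08-fold in the 5′ UTR, and both were met in all 3 injured lists. Alkbh5 (8.68, 8.23 and 9.95 FPKM) had 2 strict peaks, of 21.5-fold in exon 1 of 4 at chr11:60536381-60536591 and 5.32-fold in the 5′ UTR, and no strict peak in any injured list. The cytosolic readers Ythdf1, Ythdf2 and Ythdf3 had highest folds of 5.54, 9.58 and 14.2. The Ythdf3 peak covers 1798 exonic bases in 2 blocks and is listed in the 3′ UTR, a label of the whole peak. The nuclear reader gene Ythdc1 had 5 strict peaks up to 11.3-fold in its 3′ UTR, and the helicase reader gene Ythdc2 1 of 28.1-fold in the 5′ UTR. Prrc2a, a reader gene with a role in oligodendrocyte specification, had 33.4, 33.7 and 23.4 FPKM and 2 exon peaks of 18.1- and 5.36-fold. Hnrnpa2b1 and Fmr1 reached 4.75- and 4.97-fold, and Hnrnpc (35.2, 33.5 and 36.4 FPKM) had no strict peak in sham cord or in any injured list. Igf2bp1 was not analysed here.

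**Figure D4:**
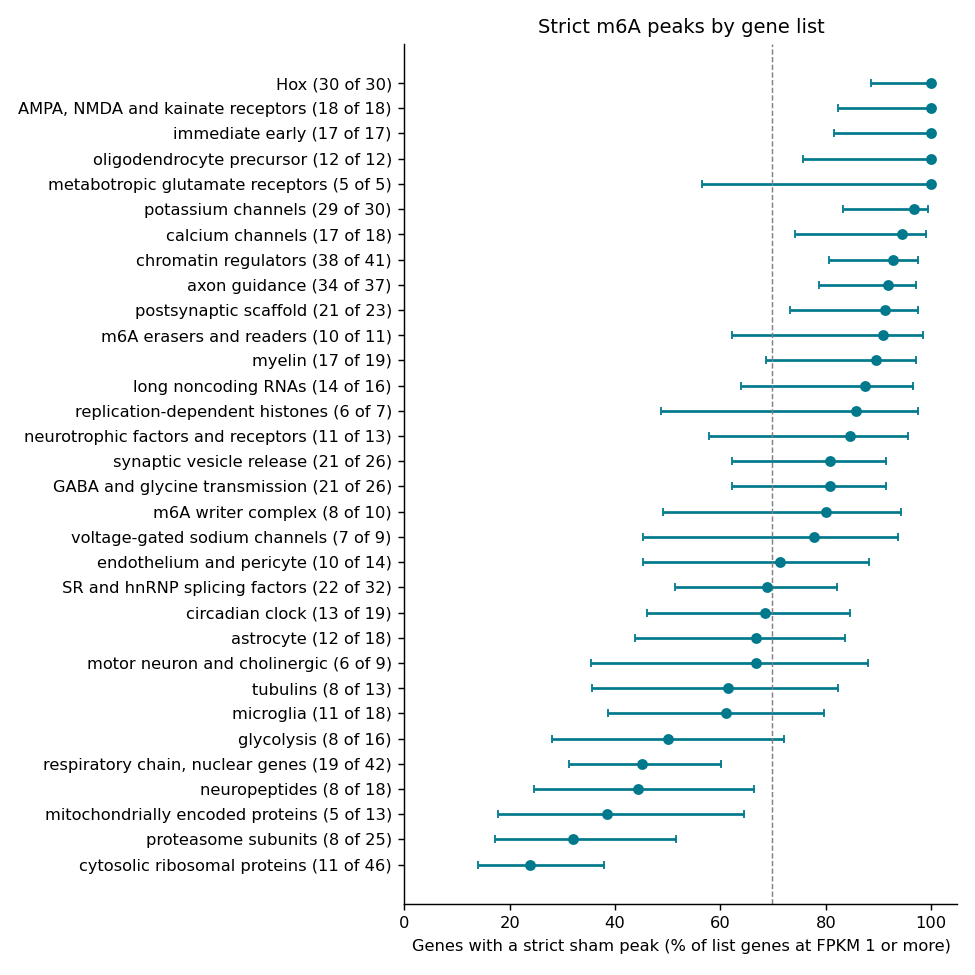
Share of expressed genes with a strict sham peak in each of 32 gene lists, in percent on the x axis, with 95% Wilson intervals (counting error only) and the background of 69.7% as a dashed line. Hox genes and ionotropic glutamate receptors stand at 100% and cytosolic ribosomal proteins at 23.9%.

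Across 32 gene lists with 710 genes, which were chosen with results of these data known, 20 lists stood above the background of 69.7% and 12 below it. Ionotropic glutamate receptors stood at the top together with the Hox, immediate early, oligodendrocyte precursor and metabotropic glutamate receptor lists. All 18 expressed AMPA, NMDA and kainate receptor genes held a strict peak, with 2.56 strict peaks per gene and a median highest fold of 17.4, against 8.16 over all expressed genes with one. Grin1, the obligatory NMDA receptor subunit, had 35.4, 34.1 and 18.6 FPKM and 1 exon peak of 43.9-fold at chr2:25312461-25312581. Kainate subunit Grik5 reached 34.8-fold in its 3′ UTR, and Grin2b, an NMDA subunit, had 6 strict peaks up to 24.8-fold. All 5 expressed metabotropic glutamate receptor genes had one, among them Grm5 with 4. The median span of the ionotropic list was 298303 bases, against 21755 over all expressed genes, and the part of span in its share was not tested.

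Potassium channel genes had a strict peak in 29 of 30 and calcium channel genes in 17 of 18, with median highest folds of 11.8 and 10.8. Kcnk9, a leak channel gene with 16.4, 15.9 and 16.4 FPKM, reached 108-fold in its 3′ UTR at chr15:72504479-72505709. Kcnd3, of the A-type current, reached 45.3-fold, while Kcnt2 (1.25, 1.4 and 1.56 FPKM) had none. Of the calcium channel genes, the T-type subunit Cacna1h reached 28.4-fold, and the AMPA receptor auxiliary genes Cacng7 and Cacng2 24- and 18.8-fold. Cacna2d3 (8.1, 7.86 and 8.37 FPKM) had 3 rows in sham cord, none strict, and 2 strict peaks on each injured day. Voltage-gated sodium channel genes had one in 7 of 9 (77.8%), near the background. Scn8a, the main subunit of nodes of Ranvier, had 20.5, 21 and 24.6 FPKM and 4 strict peaks up to 13.3-fold.

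Genes of inhibitory synapses and of vesicle release stood at 80.8% each, near the background, and those of the postsynaptic scaffold and axon guidance at 91.3% and 91.9%. These are long genes, with median spans of 98174, 53492, 105495 and 154369 bases, and among all expressed genes the 3 longest eighths by span had shares of 75.5% to 82.8%. The part of span in these shares was not tested. GABA and glycine genes held a strict peak in 21 of 26, led by Gabra3 (26.4, 27.9 and 46.3 FPKM) at 44-fold and the scaffold gene gephyrin (Gphn) at 42.6-fold. The glycine receptor gene Glra1 had 3 strict peaks up to 27.8-fold, and the GABA-degrading gene Abat (71, 71.3 and 79.7 FPKM) had none. Synaptic vesicle release genes held one in 21 of 26, with Cplx2 at 35.2-fold and Unc13a at 32.8-fold. Postsynaptic scaffold genes held one in 21 of 23, with Homer1 at 27.7-fold and 7 strict peaks in Nlgn1, though none in Dlgap1. Axon guidance genes held one in 34 of 37. The ephrin gene Efnb2 and the netrin gene Ntn1 reached 25.1- and 24-fold, and the plexin gene Plxna2 had 7 strict peaks, while the netrin receptor gene Unc5b (17.3, 17.3 and 6.54 FPKM) had none.

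Growth factor genes held a strict peak in 11 of 13. Bdnf, a neurotrophin of the dorsal horn in pain states, had only 1.07, 1.16 and 1.15 FPKM and 4 strict peaks, the strongest of 29-fold in the 5′ UTR at chr2:109674730-109675148. Igf1r reached 24.1-fold and Ntrk3 had 7 strict peaks, whereas Ret (17.1, 16 and 13.3 FPKM) had none in any list. Neuropeptide genes went the other way, with 8 of 18 and a median span of 5580 bases. Cbln1, a secreted synaptic organiser, reached 33.3-fold and the dynorphin gene Pdyn had 3 strict peaks, while Calca, which encodes CGRP (22.4, 24.4 and 10.4 FPKM), had none in sham cord and 1 on each injured day.

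Among lists of short genes, those of transcription factors stood at the top. All 30 expressed Hox genes and all 17 expressed immediate early genes held a strict peak, with median spans of 4402 and 3951 bases, which lie in the second shortest eighth of genes, where the share was 69.1%. Hoxd3 reached 33.7-fold and Hoxb4 22.9-fold in the 3′ UTR, and Hoxd9 (11.9, 12.2 and 9.99 FPKM) had 5 strict peaks over a span of 2482 bases. Of the immediate early genes, Jun (13.4, 13.4 and 10.6 FPKM) reached 32.2-fold at chr4:95049809-95050673 and Jund 26.9-fold, both in the 3′ UTR, and Egr3 had 5 strict peaks.

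Housekeeping lists lay at the other end. Cytosolic ribosomal protein genes held a strict peak in 11 of 46 (23.9%), with a median highest fold of 2.64, a median span of 3811 bases and a median of 60.4 FPKM. Rpl13a (102, 99.9 and 86.7 FPKM) had the strongest, 15.4-fold in the 5′ UTR at chr7:45128582-45128761, and Rps28 had 1 of 10.2-fold. Rplp1 (345, 362 and 87.1 FPKM) had no row. Proteasome subunit genes held one in 8 of 25, led by Psmc5 at 5.18-fold, with none in Psma6 (54.6, 53.7 and 51 FPKM). Nuclear genes of the respiratory chain held one in 19 of 42, led by Atp5c1 at 10.3-fold and Ndufa2 at 7.06-fold, with Ndufs3 holding 3 and Atp5b (254, 254 and 187 FPKM) none. Glycolysis genes held one in 8 of 16, with Tpi1 at 9.93-fold, Pfkp at 7.07-fold, 2 peaks in Aldoa and none in Ldhb (343, 350 and 260 FPKM). Of mitochondrially encoded genes, 5 of 13 held one, up to 8.02-fold in mt-Nd2, with 5.32-fold in mt-Nd6 and none in mt-Co1. With a fold of at least 4 and a log10 p of at most -10, the shares were 4.35% in ribosomal protein, 12% in proteasome, 11.9% in respiratory chain and 15.4% in mitochondrially encoded genes, against 55% of all expressed genes. Many ribosomal protein genes have processed copies elsewhere in the genome, and mitochondrially encoded genes have copies in nuclear DNA, so reads can be split. The part of such copies in these shares was not tested.

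Glial and vascular lists spread across the background. Myelin genes held a strict peak in 17 of 19 (89.5%), with Mag at 156-fold and none in Trf, but with a fold of at least 4 and a log10 p of at most -10 the share was 57.9%, near its background of 55%. All 12 oligodendrocyte precursor genes held one. Olig2, which specifies the lineage, had 22.5, 20.5 and 18.4 FPKM and a 3′ UTR peak of 40.2-fold at chr16:91226922-91227963, Lhfpl3 reached 28.5-fold and the proteoglycan gene Vcan had 6 strict peaks. Astrocyte genes held one in 12 of 18, with Sox9 at 14.3-fold, the water channel gene Aqp4 at 8.68-fold, 4 peaks in the connexin gene Gja1 and none in Apoe (591, 572 and 523 FPKM). Microglia genes held one in 11 of 18, with the fractalkine receptor gene Cx3cr1 (6.95, 6.99 and 5.76 FPKM) at 24.4-fold, complement gene C1qa at 17.2-fold, 3 peaks in Sall1 and none in the cathepsin gene Ctss. Endothelial and pericyte genes held one in 10 of 14, with Tek at 17.4-fold, Kcnj8 at 17.3-fold, 2 peaks in Pdgfrb and none in Rgs5. Motor neuron and cholinergic genes held one in 6 of 9, with Lhx4 at 12.7-fold, 5 peaks in the acetylcholinesterase gene Ache and none in the peripherin gene Prph. The neurofilament genes Nefh, Nefm and Nefl are among these 6, while Chat and Slc18a3 had none. Isl1, Isl2 and Mnx1 each held a strict peak but lay below 1 FPKM. At a minimum of 0.5 FPKM the share was 75% of 12 genes, against a background of 67%.

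The remaining lists ranged from chromatin regulators, above the background, to splicing factors, clock and tubulin genes near or below it. Chromatin regulators held a strict peak in 38 of 41, with 126 peaks, more than in any other of the 32 lists. That total depends on the length of the list. Per expressed gene it was 3.07 strict peaks, below 3.40 in metabotropic glutamate receptor and 3.17 in potassium channel genes. The median span of chromatin regulators was 86037 bases, and the part of span was not tested. Chd3 (36.9, 36.4 and 50.2 FPKM) reached 80.5-fold in the 5′ UTR, Arid1b 43.1-fold and Kmt2d had 9, while the Polycomb gene Ezh1 (9.35, 9.09 and 11.5 FPKM) had none in any list. SR and hnRNP splicing factors held one in 22 of 32: Hnrnpa0, a gene of 2678 bases, reached 83.2-fold, Tra2a 49.9-fold and Srrm2 had 7, with none in Hnrnph1. Clock genes held one in 13 of 19, with Per1 at 29.7-fold, Nfil3 at 26.8-fold, 3 peaks in Tef and none in Clock. Tubulin genes held one in 8 of 13, led by Tuba4a at 21.7-fold and Tubb2a at 10.2-fold. Of 7 expressed replication-dependent histone genes, whose main messages lack a poly(A) tail, 6 held one, with H1f2 at 17.9-fold, 2 peaks in H2bc21 and none in H4c8. H2ac18 had the highest fold of that list, 45.3, at 0, 7.63 and 0 FPKM, so its level rests on library 2. Long noncoding RNA genes held one in 14 of 16. Mirg reached 72-fold, and the imprinted Meg3 (316, 313 and 359 FPKM) had 7 strict peaks, the strongest of 18.8-fold at chr12:109571096-109571726, while Snhg12 had none.

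**Figure D5:**
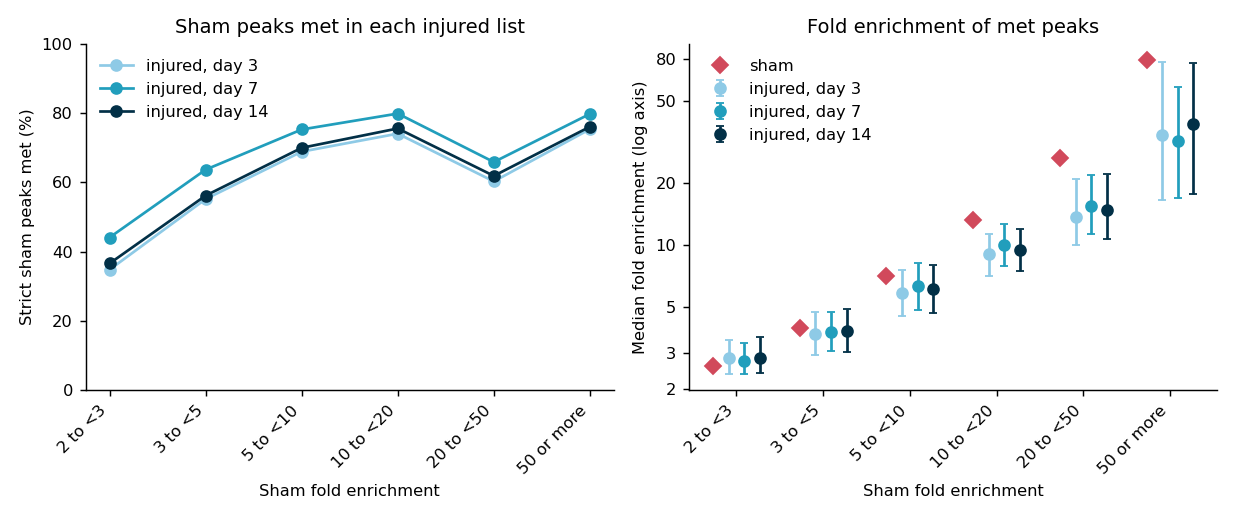
Share of strict sham peaks met by a strict peak of each injured list, in percent, by sham fold enrichment (left), and the median fold enrichment of the met pairs in sham and in each injured list on a log axis (right). At a sham fold of 10 to under 20, 74.1% are met on day 3, 79.9% on day 7 and 75.6% on day 14, with median folds of 13.2 in sham and 8.99, 9.98 and 9.41 in the injured lists.

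Most strict sham peaks had a counterpart in each injured list, and most genes that held them did too. A sham peak was counted as met when it and a strict peak of the other list covered at least 50% of each other's exonic bases on 1 strand. Of the 21808 strict sham peaks, 13356 (61.2%) were met on day 3, 14898 (68.3%) on day 7 and 13639 (62.5%) on day 14. As shares of the injured lists these are 60.4%, 71% and 62.1% of their own peaks. In all 3 injured lists 11252 (51.6%) were met and in none 5018 (23%), though only 1304 (5.98%) shared no base with any strict injured peak and 196 (0.899%) with no injured row at all. By gene, 93.5%, 92.5% and 93.7% of the genes with a strict sham peak had one on days 3, 7 and 14. Median exonic length was 390 bases in the sham list and 510, 450 and 509 bases in the injured lists, and the part of length in the shares met was not tested.

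Peaks met in all 3 injured lists had a higher median fold and lay more often in the 3′ UTR. The median sham fold was 7.62 in peaks met in all 3 lists and 4.45 in peaks met in none. The share met in all 3 did not follow fold throughout: it was 23.4% at a fold of 2 to under 3, 66.3% at 10 to under 20, 48.9% of 1741 peaks at 20 to under 50 and 63.6% of 272 peaks at 50 or more. Of 3′ UTR peaks 62.3% were met in all 3, against 41.2% of 5′ UTR and 36.4% of exon peaks. By gene level the share was 36.3% in genes below 1 FPKM and 59.8% at 20 FPKM or more. Between met pairs the fold had a Spearman correlation of 0.78, 0.82 and 0.78 across peaks with days 3, 7 and 14, over 13356, 14898 and 13639 pairs. Sham folds were the higher of the pair in 70.4%, 64.9% and 66.6% of them, with medians of 7.33, 7.13 and 7.31 in sham, against 5.96, 6.26 and 6.26 in the injured lists. The bins of the plot were formed on the sham value, so the direction within a bin is partly set by that choice: in the bin of 2 to under 3, sham was the higher in only 32.4%, 35.2% and 32.8%.

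A few expressed genes, 143 or 1.53% of those with a strict sham peak, had no strict peak in any injured list. Their peaks were mostly single and weak: 131 had 1 strict sham peak, the median highest fold was 2.97 and the median level 5.91 FPKM, and only 9 had no row at all in the injured lists. Alkbh5, with its 2 peaks of 21.5- and 5.32-fold, was among them.

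The threshold on fold cut through a continuous range. With a p-value of at most 1e-05, 273 peaks had a fold of 2 to under 2.1 and 279 had 1.9 to under 2. Just inside stood Fbxo27, Scaf1, Nsd3, Arhgap32 and Leo1, all at 2 with log10 p of -6.08 to -15.4, and just outside Mturn, Rpn1, Chl1, Etfrf1 and Dennd11, all at 1.99 with log10 p of -11.5 to -26.6. Of the 10861 rows outside the strict list, 8550 missed only the p-value, 1443 only the fold and 868 both. These rows were shorter, with a median of 151 exonic bases, lay in exons other than UTRs in 49.7% and in the 3′ UTR in 33.2%, and had a median fold of 4.97.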

How the data were processed

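Peak values and gene levels were used as deposited. Per the file headers, a peak carries a fold enrichment (a ratio of immunoprecipitated over input RNA), scores lg.p and lg.fdr, a count of exon blocks, and block sizes, span and distance to a start in bases, and the authors deposited gene levels as FPKM for input libraries. Per the submitters' processing notes, HISAT2, ChIPseeker, StringTie and edgeR were used, without versions; the sources used here name neither peak caller nor genome build. Of 26219 symbols matched to RefSeq, 99.92% of genes overlapped the gene of that name in GRCm38.p6, whose starts, gene classes and microRNAs were used; starts on chromosome 18 were not shown.

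Samples were grouped by their labels. Strict peaks had a fold of at least 2 and lg.p of at most -5; lg.p was taken as base 10. Gene names come from the FPKM table, which does not hold the genes of 138 strict peaks. Expressed genes had a mean sham FPKM of at least 1. Peaks were met at a reciprocal overlap of 50% of exonic bases on 1 strand (bedtools 2.31.1), and 41 strict peaks with no strand counted as not met. Tables were made with pandas 2.3.3 and scipy 1.17.1 in Python 3.11.15. Overlap, merging and correlation steps were tested on simulated data. No test between groups was possible with 1 list per group; Wilson intervals cover counting error over genes only, and read depth is unknown.

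Members and gene lists were chosen with earlier results of these data known. Named genes, leaving out predicted names, were the 12 peaks of highest fold, the 8 of smallest p-value and those whose p was too small to be held, the 10 genes with most peaks, the 10 most abundant with a strict peak and with no row, the 6 of highest fold in each place, all m6A genes, up to 4 genes per list and 5 peaks on each side of the fold threshold. Some genes that this rule names are not reported here. The p-values too small to be held, the microRNA hairpins and the library, liver, muscle and forebrain genes were named after their values were seen. Alternatives were all rows, a fold of at least 4 with lg.p of at most -10, lg.fdr, merged rows, FPKM minimums of 0.5 and 5, FPKM rescaled to a sum of 1000000, leaving out each sham library, every peak in place of the highest, overlaps of 1 base and 80%, and equal numbers of peaks. Chosen after seeing the data were rows naming 1 gene, genomic spans, leaving out the shortest eighth of genes, and counting sham libraries 1 and 2 as 1.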

Additional observations from a re-analysis of the deposited data

How the results depend on the processing

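All 32669 rows, a limit on lg.fdr (20976) and merging overlapping rows (21551) kept the number of strict peaks within 1.5 times 21808, and a fold of at least 4 with a log10 p of at most -10 left 13442. The share of expressed genes with a strict peak (69.7%) was 76.3% with all rows, 55% with the stricter thresholds, 67% and 71.4% at FPKM minimums of 0.5 and 5, 61.6% with FPKM rescaled to a sum of 1000000, 74.7% without the shortest eighth of genes, and 69.7% to 69.9% when each sham library was left out of the FPKM mean, the peak list being the same throughout. The 3′ UTR share (55.9%) was 48.4% with all rows, 59.8% with the stricter thresholds and 50.4% in peaks naming 1 gene; the exon share (29.7%) was 36.3%, 26.1% and 31.7%, and the 5′ UTR share (14.4%) was 15.3% with all rows and 17.9% in peaks naming 1 gene. The median fold (6.34) was 6.03 with all rows, 8.39 with the stricter thresholds and 5.34 in genes at 5 FPKM or more. The correlation of highest fold with FPKM (-0.16) stayed negative: -0.16 with all rows, -0.09 with the stricter thresholds, -0.17 at a minimum of 0.5, -0.20 after rescaling, -0.14 over every peak and -0.16 without each library in turn. The share met in all 3 injured lists (51.6%) was 40% with all rows, 52.4% with the stricter thresholds, 79.4% at 1 shared base, 20.7% at 80%, 42.5% by genomic spans and 52.1% with equal numbers of peaks. Between 27 and 32 of 32 gene lists stayed on the same side of the background across 8 settings, though the stricter thresholds changed several shares by over 1.5 times (myelin 57.9%, ribosomal 4.35%). No paired analysis was possible because the results come from no test, with 1 peak list per group. Placing peak centres against a reference annotation was not run, since no exon annotation was used here. Without read depth, peaks missing from weakly expressed genes cannot be read as absent.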
